A study of Mus musculus with 24 samples.

Results

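Avp, Oxt, Crh, Gal, Ghrh, Otp and Sim1 are 7 genes of the neurosecretory neurons of the hypothalamus. They were followed array by array in brain RNA of mice on 4 diets, through every probe set (a group of short probes for 1 transcript) that the platform annotation assigns to 1 of these genes and to no other. This rule gave 9 of the 45037 probe sets analysed, and levels of different probe sets are not compared with each other. Avp, Oxt, Crh, Gal and Ghrh had 1 probe set each, and Otp and Sim1 had 2 each, of which the one with the higher mean is called the leading probe set.

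The study asked whether diets typical of humans and of chimpanzees change gene expression in the mouse. Female mice of the strain NMR-1, aged 8 weeks at the start, ate 1 diet for 2 weeks, and each group held 6 mice. All mice had been raised on mouse pellets. The Pellet group stayed on these, the Chimpanzee group ate vegetables, fruit and yogurt, the HumanCafe group ate cooked cafeteria food, and the FastFood group ate items of a McDonald's restaurant such as cheeseburgers, French fries and apple pie. The right cerebral hemisphere was dissected, so that no sample is a dissected hypothalamus. Each mouse gave 1 Affymetrix mouse genome array, and littermates were spread over the groups. RNA was processed in 2 batches with 3 mice per diet in each, and arrays are named below by diet, batch and replicate number. No genotype or drug differed between the groups.

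Neurosecretory neurons lie mainly in the paraventricular, supraoptic and arcuate nuclei and release peptides into the blood. Avp (vasopressin) and Oxt (oxytocin) are made by large neurons that reach the posterior pituitary and act on water balance, birth, milk release and social behaviour. Crh (corticotropin-releasing hormone) starts the pituitary stress response, Ghrh releases growth hormone, and Gal (galanin) is a peptide that is often made together with other hypothalamic peptides. Otp and Sim1 are transcription factors that some of these neurons need in development.

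The array Pellet batch 2 replicate 1 stands apart from the rest. Its median correlation with the other arrays was 0.893, against 0.980 to 0.993 for the other 23, and the SD of its log2 values was 1.58, against 1.81 to 2.06. The paper excluded 1 pellet brain sample for RNA degradation without naming it, and whether it was this array is not known. The labelled batches of the Pellet group also ran against those of the other diets. Over 45037 probe sets, the difference of batch 1 minus batch 2 on pellets correlated with that on the other 3 diets at r between -0.78 and -0.72, whereas those 3 diets correlated with each other at r between 0.77 and 0.87. The correlations and the differences between Pellet and FastFood are therefore also given without the Pellet arrays of batch 2, or without 1 or 2 of them. Markers of the cerebral cortex were present on all arrays: Slc17a7, a glutamate transporter of cortical neurons, had log2 levels from 8.58 to 9.75, and Mef2c, a transcription factor, from 9.36 to 11.27.

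Avp and Oxt are neighbours in the genome as well as in their neurons, so their promoters are shown here. In the mouse build GRCm38.p6, Oxt lies at chr2:130574519-130577054 and Avp at chr2:130580620-130582588. They are transcribed towards each other, with 3565 bases between them. The windows are the 250 bases before the start of a RefSeq transcript, on the strand of the gene, at chr2:130582589-130582838 on the minus strand for Avp and at chr2:130575919-130576168 on the plus strand for Oxt. The annotated Oxt gene begins before its window. Capitals mark an E-box (CACGTG), the nuclear receptor core AGGTCA or its reverse complement TGACCT, and the TATA-like CATAAA.
Avp: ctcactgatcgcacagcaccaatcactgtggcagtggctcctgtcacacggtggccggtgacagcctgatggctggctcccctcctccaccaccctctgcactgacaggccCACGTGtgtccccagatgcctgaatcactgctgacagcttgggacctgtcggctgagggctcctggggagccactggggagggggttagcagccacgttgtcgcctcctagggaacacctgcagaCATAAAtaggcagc
Oxt: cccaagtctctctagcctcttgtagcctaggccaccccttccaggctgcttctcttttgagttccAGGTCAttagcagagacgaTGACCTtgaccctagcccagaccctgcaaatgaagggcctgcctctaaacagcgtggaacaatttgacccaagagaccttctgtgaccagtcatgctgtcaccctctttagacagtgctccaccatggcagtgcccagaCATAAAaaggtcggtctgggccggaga

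The longest run of letters shared by the Avp and Oxt windows is CAGACATAAA, of 10 bases. It begins 18 bases before the Avp start and 31 bases before the Oxt start. On the given strand it is found in 0.0304% of 32851 windows of this length, these included. Because the run was searched for as the longest shared one, its presence in both windows is no result of its own. The CATAAA within it is common, at 10.8% of the windows when both strands are searched. The E-box CACGTG was found in the Avp window, 139 bases before the start, and in 6.02% of all windows. The core AGGTCA or TGACCT was found in the Oxt window, at 185 and 166 bases before the start, and in both Ghrh windows, against 14% of all windows. TATAAA was found in a Ghrh window and, only as its reverse complement TTTATA, in the Sim1 window (12.4% of all windows on either strand). The cAMP response core TGACGT was found on neither strand in any window of these genes (6.47% of all windows). RefSeq windows matched 6 of the 7 genes. These matches describe letters and no binding was measured.

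Avp varied more between mice of the same diet than almost any other transcript on the array. On the Chimpanzee diet its log2 level had a lowest value of 4.67, a median of 6.99 and a highest value of 7.38. On HumanCafe the lowest, median and highest values were 4.69, 7.40 and 8.00. On FastFood they were 5.41, 7.17 and 8.05, and on Pellet 4.94, 7.03 and 7.50. Every diet thus held both low and high arrays, and the 4 ranges overlapped. The SD among arrays of the same diet and batch was 1.04 log2, and 0.04% of all probe sets had a larger one. The median SD over all probe sets was 0.17. A lower level on an array of bulk tissue can mean fewer cells of a type or less RNA per cell, and these cannot be told apart.

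Oxt showed the same width. Its lowest, median and highest log2 levels were 5.34, 7.05 and 7.77 on Chimpanzee, and 5.08, 7.73 and 8.01 on HumanCafe. They were 5.49, 6.92 and 7.94 on FastFood, and 6.39, 6.86 and 7.58 on Pellet. Pellet arrays spanned the narrowest range, inside that of every other diet. The SD within diet and batch was 0.88 log2, with 0.0644% of all probe sets above it. Without the 3 Pellet arrays of batch 2 the SDs of Avp and Oxt were 1.03 and 0.93.

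The low Avp arrays were the low Oxt arrays on 3 diets. In batch 2, the array numbered 2 was the lowest of 3 for both genes on Chimpanzee, HumanCafe and FastFood, and the array numbered 3 was the highest. Avp read 7.12, 4.67 and 7.38 on the Chimpanzee arrays of batch 2 in the order of their numbers, and Oxt read 6.72, 5.34 and 7.37. On HumanCafe Avp read 6.89, 4.69 and 7.89, and Oxt 6.46, 5.08 and 8.01. On FastFood Avp read 6.94, 5.41 and 8.05, and Oxt 6.84, 5.49 and 7.73. The gap between the lowest and highest of these arrays was 2.63 to 3.20 log2 for Avp and 2.03 to 2.93 log2 for Oxt. Gal had the same lowest and highest array on the same 3 diets, with gaps of 0.83 to 1.28 log2. On Pellet the arrays of batch 2 read 5.26, 7.02 and 4.94 for Avp and 6.39, 6.64 and 6.39 for Oxt, so that the middle number was the high one.

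In batch 1 the Avp values of every diet lay closer together than in batch 2. They were 6.14, 7.07 and 6.92 on Chimpanzee, 6.98, 8.00 and 7.82 on HumanCafe, 7.09, 7.25 and 7.88 on FastFood, and 7.50, 7.35 and 7.04 on Pellet. For Oxt this held less well: it was at 5.83 on Chimpanzee batch 1 replicate 1, below the other 11 arrays of the batch, which lay between 6.82 and 7.97.

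**Figure D1:**
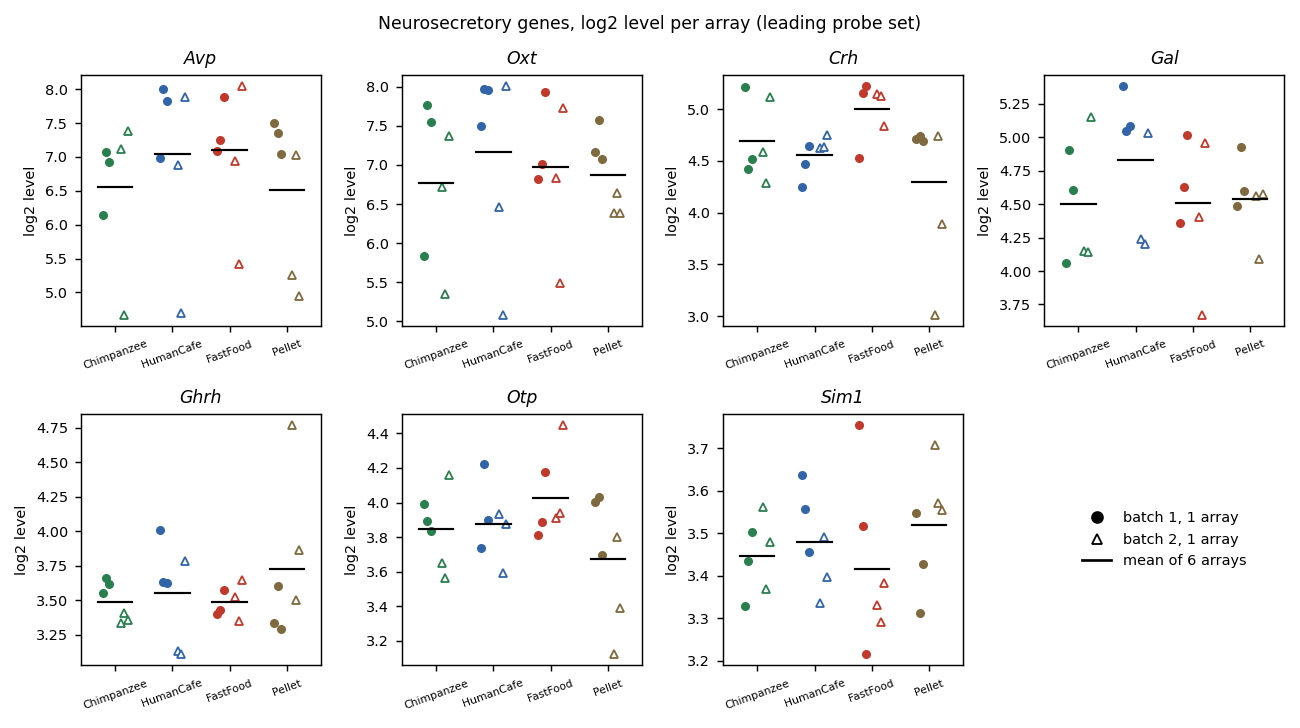
Log2 level (vertical axis) of the leading probe set of each gene on the 24 arrays, by diet (horizontal axis). Filled circles are batch 1, open triangles batch 2, and bars the mean of 6 arrays. Avp has low arrays on each diet and Oxt on all but Pellet, and Crh and Otp have their lowest array, and Ghrh its highest, on Pellet batch 2.

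The other peptide genes moved over smaller ranges. The log2 level of Crh averaged 4.69 ± 0.38 (SD, n = 6) on Chimpanzee, 4.56 ± 0.18 on HumanCafe, 5.00 ± 0.27 on FastFood and 4.30 ± 0.71 on Pellet. Its lowest array, at 3.02, was Pellet batch 2 replicate 1, and the next, at 3.89, was Pellet batch 2 replicate 3. The other 4 Pellet arrays lay between 4.69 and 4.74. Gal had means of 4.50 ± 0.46, 4.83 ± 0.49, 4.51 ± 0.49 and 4.54 ± 0.27 (SD, n = 6) on Chimpanzee, HumanCafe, FastFood and Pellet. The SDs of Crh and Gal within diet and batch were 0.41 and 0.42 log2, and 2.67% and 2.13% of all probe sets had a larger one. Both genes therefore varied more than most, though less than Avp and Oxt.

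Ghrh, Otp and Sim1 had mean log2 levels below 4.07, the median over all probe sets. Ghrh lay between 3.11 and 4.77, with its highest value on Pellet batch 2 replicate 1 and its next highest, 4.01, on HumanCafe batch 1 replicate 1. The leading probe set of Otp lay between 3.12 and 4.45, and that of Sim1 between 3.22 and 3.75. The 2 probe sets of Otp did not move together: their r over 24 arrays was -0.63 (permutation p = 0.00225) with a rho of -0.33 (permutation p = 0.110), and without the Pellet arrays of batch 2 r was -0.25. On Pellet batch 2 replicate 1 the leading one was at its lowest and the other, at 4.59, at its highest. For Sim1 the r between its 2 probe sets was 0.01 (permutation p = 0.961). The leading probe set of either gene therefore does not speak for the other one.

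The comparison of human with chimpanzee food was the main one of the study, and none of the 9 probe sets passed it. An adjusted p under 0.05 in limma was reached by 0 of 9 probe sets for the mean of HumanCafe and FastFood minus Chimpanzee, where it was reached by 0% of all probe sets. At an unadjusted p under 0.05 the count was again 0 of 9, against 2.08% of all probe sets, and the methods' two-way test at an unadjusted p under 0.01 also gave 0, where 1.17% of all probe sets passed. The log2 difference was 0.52 (SE 0.47) for Avp, with a 95% interval from -0.44 to 1.49, and 0.30 (SE 0.38) for Oxt, with an interval from -0.50 to 1.10. For Gal it was 0.16, for Otp 0.10, for Crh 0.09, for Ghrh 0.03 and for Sim1 0.00. The interval of Avp is wide enough to hold a rise of more than 1 log2 as well as a fall. No difference was detected at this spread, and one within the interval is not shown to be absent. Narrower intervals held for Ghrh (-0.31 to 0.37) and Sim1 (-0.15 to 0.15), whose mean levels lay below the median over all probe sets. At such levels a narrow interval does not show that a difference of the transcript is absent.

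Within each batch the difference of Avp was 0.80 in batch 1 and 0.25 in batch 2, and that of Oxt 0.48 and 0.12, with an adjusted p of 1.00 for each (limma), where 0 of 9 probe sets passed against 0.0244% of all in batch 1 and 0% in batch 2. Gal changed sign, from 0.39 in batch 1 to -0.07 in batch 2. Single Chimpanzee arrays moved the values of Avp and Oxt most. The difference of Avp was 0.22 without Chimpanzee batch 2 replicate 2 and 0.79 without Chimpanzee batch 2 replicate 3, and that of Oxt 0.021 without Chimpanzee batch 1 replicate 1 and 0.52 without Chimpanzee batch 2 replicate 3.

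Between Pellet and FastFood the 95% intervals of Crh and of both Otp probe sets left out 0, though no adjusted p was under 0.05. The SD on Pellet was 0.71 for Crh and 0.36 for the leading Otp probe set. Crh, the stress-response peptide, differed by -0.70 log2 (SE 0.24, 95% interval -1.20 to -0.21, adjusted p = 0.257 from limma), with lowest, median and highest levels of 3.02, 4.70 and 4.74 on Pellet and 4.53, 5.14 and 5.22 on FastFood. The 2 ranges overlapped, since the lowest FastFood array lay below 4 Pellet arrays. The leading Otp probe set differed by -0.35 and the second one by 0.31, with an adjusted p of 0.257 for each. At an unadjusted p under 0.05 these 3 probe sets passed, 3 of 9 against 19.0% of all probe sets, and at an adjusted p under 0.05 the count was 0 of 9 against 0.0222%. The methods' two-way test gave 0 of 9 at p under 0.01, against 3.68%. Without Pellet batch 2 replicate 1 the differences were -0.45 for Crh and -0.25 and 0.17 for the Otp probe sets, and without replicate 3 of that batch as well they were -0.26, -0.16 and 0.093. Avp differed by -0.59 (SE 0.54) in the same comparison, the widest of its differences between 2 diets with all arrays kept. Without Pellet batch 2 replicate 1 the Avp difference was -0.42, and without replicate 3 of that batch as well it was -0.034.

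In labelled batch 2 alone, 4 of 9 probe sets passed this comparison, against 40.0% of all probe sets: Crh at -1.16 (adjusted p = 0.0250), both Otp probe sets at -0.66 and 0.59 (adjusted p = 0.0336 and 0.0399) and the leading Sim1 probe set at 0.27 (adjusted p = 0.0340, all from limma). In batch 1 alone the Crh difference was -0.25 (adjusted p = 0.738), and 0.737% of all probe sets passed. The share of the members is near that of all probe sets in batch 2, and the array that stands apart is 1 of the 3 Pellet arrays there. Whether diet, RNA quality or the batch labels set these values was not tested.

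No probe set of these genes passed in the other comparisons. The count was 0 of 9 in HumanCafe minus Chimpanzee, FastFood minus Chimpanzee, FastFood minus HumanCafe, Pellet minus HumanCafe and FastFood minus Chimpanzee and HumanCafe, in each of which 0% of all probe sets passed in limma, and at an unadjusted p under 0.05 it was 0 of 9 in each of these as well, against 1.81%, 2.20%, 1.75%, 5.29% and 2.05% of all probe sets in this order. It was 0 of 9 in Pellet minus Chimpanzee (0.00222% of all probe sets), and 1 of 9 at an unadjusted p under 0.05 (9.45% of all), the second Otp probe set at 0.35 log2. The F test among the 4 diets gave 0 of 9 (0.0222% of all probe sets), a lowest adjusted p of 0.729 and again 0 of 9 at an unadjusted p under 0.05 (5.43% of all). The widest differences of Oxt and Gal were in HumanCafe minus Chimpanzee, at 0.40 (SE 0.44) and 0.33 (SE 0.22) log2. The methods' two-way test gave 0 of 9 at p under 0.01 in all of these comparisons, where 0.859%, 1.49%, 1.70%, 0.890% and 1.93% of all probe sets passed in the order above, 1.26% in Pellet minus Chimpanzee and 3.45% among the 4 diets, shares at which a count of 0 says nothing particular about these genes. Its lowest p for them was 0.0116, for Crh in FastFood minus HumanCafe (0.44 log2, 95% interval -0.05 to 0.94).

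The batches were compared for the same genes. In batch 1 minus batch 2 over the 18 arrays of the other 3 diets, 0 of 9 probe sets passed at an adjusted p under 0.05 in limma, against 32.9% of all probe sets. At an unadjusted p under 0.05, 3 of 9 passed, against 42.8%. Oxt differed by 0.81 log2 (SE 0.38, adjusted p = 0.115), Avp by 0.68 (SE 0.42, adjusted p = 0.233) and Gal by 0.35 (SE 0.19, adjusted p = 0.161). Of the 9 differences 8 were above 0, although none passed. For the interaction of diet and batch the count was 0 of 9 in limma, against 31.5%, and 1 of 9 at an unadjusted p under 0.05, against 44.2%. That one was Ghrh (adjusted p = 0.0546).

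**Figure D2:**
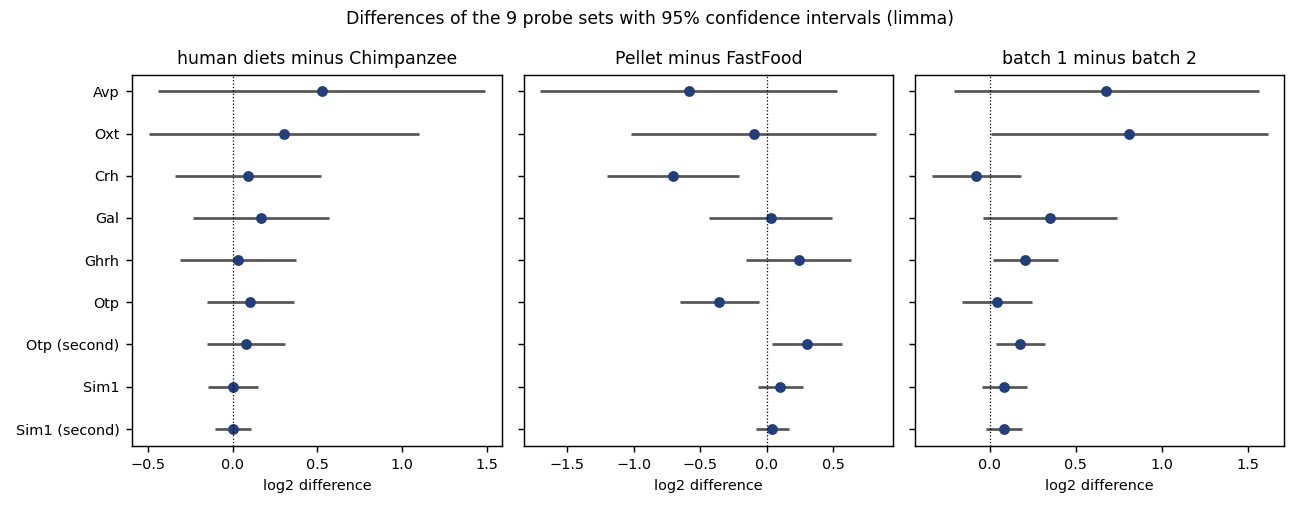
Log2 difference (horizontal axis) of the 9 probe sets in 3 comparisons, as points with 95% confidence intervals from limma. In human diets minus Chimpanzee every interval holds 0, and in Pellet minus FastFood the intervals of Crh and of both Otp probe sets do not, the latter on opposite sides of 0.

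The relation between the genes was tested for all 21 pairs of leading probe sets over the 24 arrays, with p-values from 100000 permutations adjusted over the pairs, and 9 pairs passed. Avp and Oxt had an r of 0.88 (adjusted p = 0.000105) and a rho of 0.85 (adjusted p = 0.000105), and the permutation p of each, 1e-05, is the smallest that the permutations can give. The r was 0.81 in batch 1 and 0.89 in batch 2. On the deviations of each array from the mean of its diet and batch it was again 0.88 (adjusted p = 0.00042). Without the Chimpanzee and HumanCafe arrays of batch 2 numbered 2, which lie farthest from the Avp median, r was 0.81 (permutation p = 1e-05). Without the Pellet arrays of batch 2 it was 0.93. High and low arrays of the pair coincided on each of these selections.

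Oxt and Gal had an r of 0.83 and a rho of 0.84 (adjusted p = 0.000105 for each), with 0.84 in batch 1, 0.78 in batch 2 and 0.81 on the deviations (adjusted p = 0.0131). Without the 2 arrays farthest from the Oxt median r was 0.87, and without the Pellet arrays of batch 2 it was 0.86. Avp and Gal had an r of 0.60 and a rho of 0.66 (adjusted p = 0.00651 and 0.00425), with 0.60 in batch 1 and 0.53 in batch 2, and on the deviations r was 0.53 with an adjusted p of 0.192. Without the Pellet arrays of batch 2 it was 0.71 (adjusted p = 0.0007). Avp and the leading Otp probe set had an r of 0.72 and a rho of 0.65 (adjusted p = 0.00042 and 0.00425). The r was 0.53 in batch 1, where it did not pass (adjusted p = 0.27 by permutation), and 0.72 in batch 2. It was 0.70 on the deviations (adjusted p = 0.0268) and 0.63 without those Pellet arrays (adjusted p = 0.00907). Over the 24 arrays these peptide genes were therefore high and low together, although Avp and Gal did not pass within diet and batch.

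Crh did not follow Oxt and Gal over the arrays. With Oxt its r was 0.11 and its rho 0.13 (adjusted p = 0.745 and 0.733), and with Gal -0.08 and -0.04 (adjusted p = 0.745 and 0.943). With Avp its r was 0.42 and its rho 0.37 (adjusted p = 0.0798 and 0.151), and without the Pellet arrays of batch 2 r was 0.11. With Ghrh its r was -0.70 (adjusted p = 0.00804) but its rho -0.30 (adjusted p = 0.241). Without Pellet batch 2 replicate 1 the r was -0.34 (adjusted p = 0.205), and without that array and Pellet batch 2 replicate 3 it was -0.19 (permutation p = 0.397), so that the value of -0.70 rests on these arrays. The leading Otp probe set and Crh had an r of 0.74 and a rho of 0.62 (adjusted p = 0.000525 and 0.00664), which was 0.45 without the Pellet arrays of batch 2 (adjusted p = 0.0847). Sim1 had an r of -0.61 with Crh (rho -0.61, adjusted p = 0.00416 and 0.00679) and of -0.53 without those arrays (adjusted p = 0.0402). The last 2 pairs that passed were Oxt with Otp (r = 0.51, rho = 0.52, adjusted p = 0.0281 and 0.0267) and Otp with Sim1 (r = -0.48, rho = -0.50, adjusted p = 0.0393 and 0.0301). Neither passed on the deviations (adjusted p = 0.0751 and 0.269), nor did Crh with Otp or Sim1 (adjusted p = 0.0759 and 0.125). Without the Pellet arrays of batch 2, Oxt with Otp had an r of 0.52 (adjusted p = 0.0410) and Otp with Sim1 one of -0.29 (adjusted p = 0.367). With the mean of both Otp probe sets in place of the leading one, the r of Crh and Otp was 0.15.

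Ghrh followed Gal and Oxt more closely once the Pellet arrays of batch 2 were left out. Gal and Ghrh had an r of 0.37 over all arrays (adjusted p = 0.118) and a rho of 0.54 (adjusted p = 0.0224), and the r was 0.53 on the deviations (adjusted p = 0.00242) and 0.68 without those arrays (adjusted p = 0.00383). Without HumanCafe batch 1 replicate 1 and FastFood batch 2 replicate 2, the arrays farthest from the Gal median, it was 0.27 (permutation p = 0.241). Oxt and Ghrh had an r of 0.23 (adjusted p = 0.389) and a rho of 0.46 (adjusted p = 0.0496), and the r was 0.33 on the deviations (adjusted p = 0.192) and 0.63 without the Pellet arrays of batch 2 (adjusted p = 0.00802). Whether the pairs with Ghrh pass thus turns on which arrays are used.

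**Figure D3:**
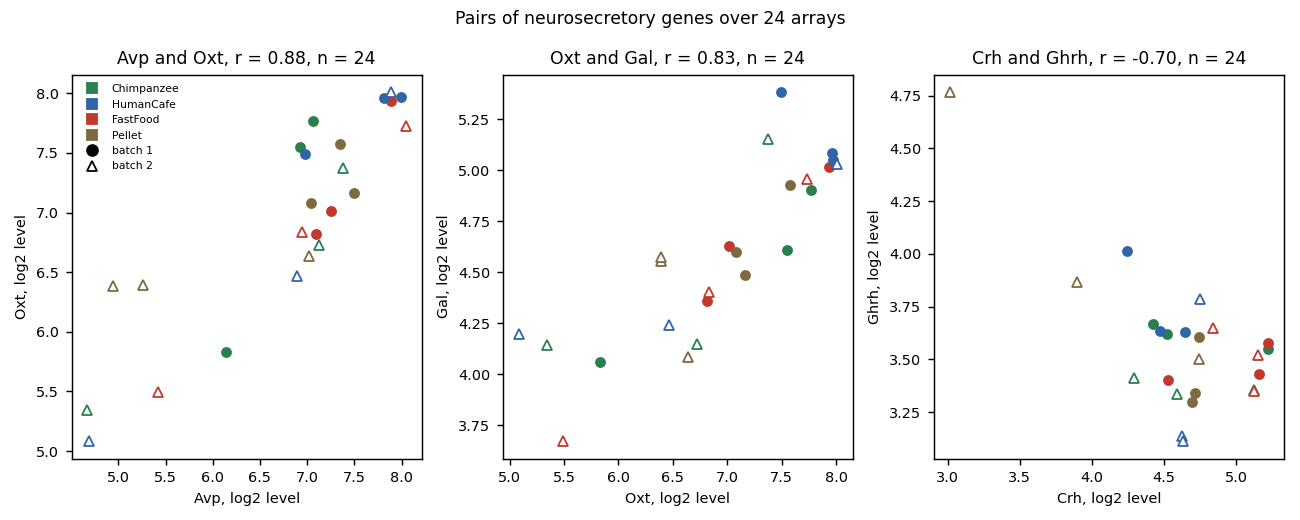
Log2 levels of Avp and Oxt, Oxt and Gal, and Crh and Ghrh, each point 1 of 24 arrays, coloured by diet, with circles for batch 1 and triangles for batch 2. The first 2 pairs rise together (r = 0.88 and 0.83), and the third (r = -0.70) leans on 1 Pellet array with Crh at 3.02 and Ghrh at 4.77.

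The genes whose deviations were most like those of Avp and Oxt included other hypothalamic genes. Likeness is the Pearson r between deviations from the diet and batch means over 24 arrays, among 19802 probe sets with 1 gene and a mean at or above the median. It is given as a description, and the arrays share the same libraries throughout. The 3 nearest to Avp were Isl1, a transcription factor of hypothalamic and striatal neurons, at 0.94, Nts, the peptide neurotensin, at 0.91, and Pmch, the melanin-concentrating hormone of the lateral hypothalamus, at 0.89. The second Isl1 probe set had 0.45. The 3 nearest to Oxt were Baiap3, a regulator of vesicle release, at 0.94, Dlk1, an imprinted membrane protein, at 0.94, and AW551984 at 0.89. The second Dlk1 probe set had 0.34. The nearest to Gal were Pycrl at 0.82, Oxt at 0.81 and Igsf1 at 0.79. The nearest to Otp was Tac2, the neurokinin B precursor, at 0.90, followed by Acad9 at 0.84 and 2510039O18Rik at 0.83.

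Pmch shows what this likeness looks like array by array. In batch 2 it read 8.16, 4.12 and 8.34 on Chimpanzee, in the order of the numbers, 7.96, 4.07 and 9.02 on HumanCafe, 7.89, 7.42 and 8.78 on FastFood and 5.05, 7.23 and 5.77 on Pellet. The array lowest in Avp was thus the lowest in Pmch on Chimpanzee, HumanCafe and FastFood, although the FastFood one was only at 7.42 while its Avp was at 5.41. On Pellet the 2 arrays low in Avp were the 2 low in Pmch. On Chimpanzee batch 1 replicate 1, where Oxt was at 5.83, Pmch was at 4.56 and the other Chimpanzee arrays of batch 1 at 7.50 and 7.67.

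For Crh the nearest genes were Tor1b at 0.95, Prps1l3 at 0.94 and Tmem209 at 0.93, for Ghrh Cela3b, Ago2 and Trpv4, each at 0.95, and for Sim1 Cox5b at 0.82, Plat at 0.81 and Klhdc10 at 0.81. Other probe sets of the same genes went as low as -0.02 for Tmem209, -0.62 for Ago2 and -0.67 for Cox5b, so that these likenesses belong to single probe sets.

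**Figure D4:**
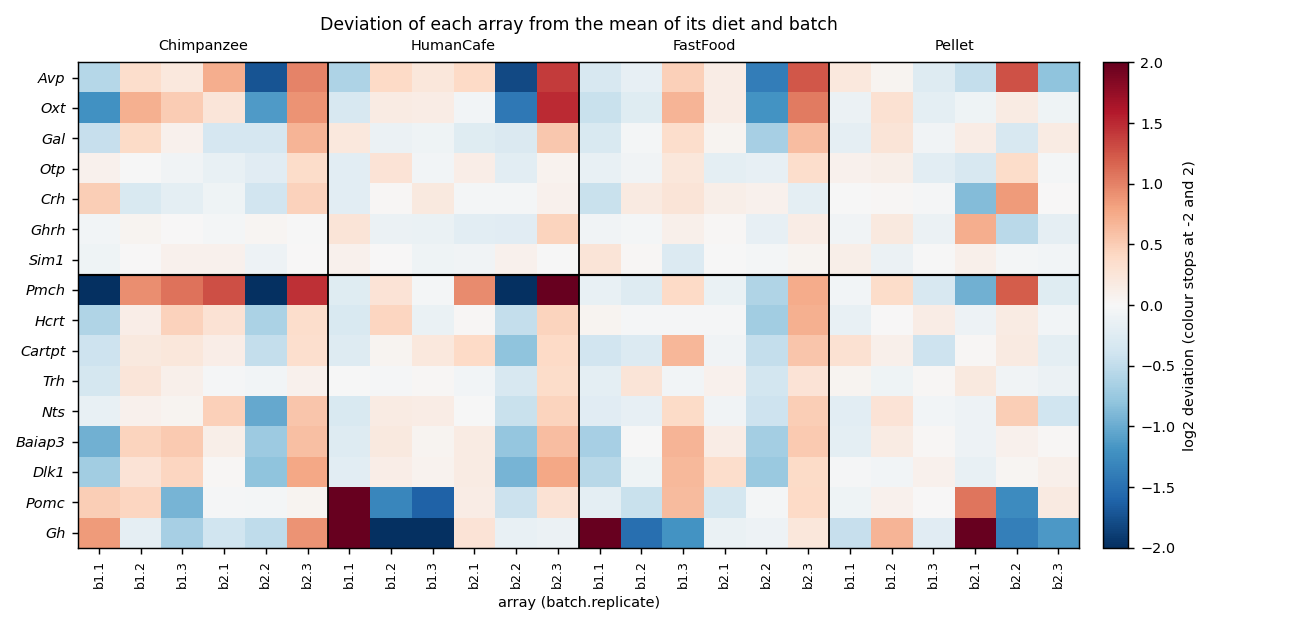
Log2 deviation (colour, red above and blue below, cut at -2 and 2) of each array (columns, batch and replicate number within diet) from the mean of its diet and batch, for the 7 genes (above the line) and 9 others. Avp, Oxt, Pmch, Baiap3 and Dlk1 are low together on the arrays numbered 2 of batch 2 on Chimpanzee, HumanCafe and FastFood, and high on those numbered 3, whereas Gh follows another set of arrays.

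Other genes of the same systems were read through lists. Of 9 receptors for these peptides, 12 genes of peptide processing and granules, 10 transcription factors of neurosecretory neurons, 8 other hypothalamic peptides and enzymes and 16 genes of hypothalamic regions, 0 passed in human diets minus Chimpanzee or in the F test among the 4 diets. In human diets minus Chimpanzee, 4 of 9 receptors, 10 of 12 processing genes and 5 of 10 transcription factors had differences above 0, with medians of -0.00, 0.08 and -0.00 log2 beside 0.01 for all probe sets. The widest were 0.05 for the receptor Ghrhr, 0.30 for Resp18, a protein of peptide granules, and 0.10 for the transcription factor Sim2. Of the other hypothalamic peptides 7 of 8 were above 0, with a median of 0.13, among them Pmch at 1.05 (SE 0.69), Cartpt, the satiety peptide precursor, at 0.31 (SE 0.23) and Pomc, the melanocortin precursor, at 0.22 (SE 0.54), and of the regional genes 14 of 16, with a median of 0.07, among them Baiap3 at 0.49 and Irs4, an insulin receptor substrate, at 0.44. The adjusted p of each was 1.00 (limma). These differences lie within the spread between arrays. Pomc was at 10.47 on HumanCafe batch 1 replicate 1, where the pituitary hormone genes Gh and Prl were at 11.65 and 11.28. Without that array its difference was -0.17 (SE 0.32), and 6 of 8 peptides were above 0.

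Several genes of peptide processing differed between the batches. In batch 1 minus batch 2, 5 of 12 processing and granule genes passed as lower in batch 1, against 22.7% of all probe sets: Cpe, a carboxypeptidase that trims prohormones, at -0.82, Scg5, a chaperone of a prohormone convertase, at -0.66, Scg3 at -0.52, Chgb at -0.51 and Scg2 at -0.39, the last 3 being granins of secretory granules. Of the transcription factors 5 of 10 passed as higher in batch 1, against 10.2% of all probe sets, Pou3f2 at 0.35, Sim2 at 0.26, Lhx1 at 0.22 and Hmx2 and Hmx3 at 0.17 each, and 2 passed as lower, Nr3c1, the glucocorticoid receptor, at -0.53 and Arnt2, the partner of Sim1, at -0.50. As higher in batch 1 there also passed 1 of 9 receptors, Oxtr at 0.14, and 1 of 8 other peptides and enzymes, Hdc, the histamine enzyme, at 0.34. Of the regional genes 1 of 16 passed, Magel2 at 0.34. The changes in the lists thus ran both ways. Passing as lower in batch 1 was not particular to the processing genes. It was also found for 4 of 9 choroid plexus, 4 of 9 striatum, 3 of 10 cortex and 1 of 11 thalamus markers, and for no pituitary, midbrain, cerebellum or blood marker. Sim2, Lhx1, Hmx2 and Hmx3 had mean log2 levels of 3.43, 3.65, 3.26 and 3.15, below the median of 4.07 over all probe sets, and Pou3f2 had 5.84. The processing genes that passed as lower had means from 9.32 to 11.70, and Nr3c1 and Arnt2 had 7.54 and 9.01. The part of the expression level in these batch differences was not tested.

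The deviations of Avp and Oxt, averaged per array, were also set against lists of brain regions. An r above 0.5 was reached by 4 of 8 other hypothalamic peptides and enzymes (Pmch at 0.91, Cartpt at 0.88, Hcrt, the orexin precursor, at 0.87 and Trh, thyrotropin-releasing hormone, at 0.71) and by 5 of 16 regional genes (Baiap3 at 0.89 and Irs4 at 0.87 as the highest). It was reached by 2.08% of the 19802 probe sets, which all lie at or above the median level, whereas the lists had no such filter. Among the receptors it was reached by 0 of 9, with a highest r of 0.30 for Avpr1a, among the transcription factors by 0 of 10, and among the processing genes by 1 of 12, Resp18 at 0.70. The receptors Avpr1a, Avpr1b, Crhr2, Galr1 and Galr2 had low means of 3.01 to 3.55. The factors Sim2, Hmx2, Hmx3, Gsx1, Lhx1 and Uncx had means of 3.15 to 3.84. For these genes a low r cannot tell an absent relation from a weak signal. Without the Pellet arrays of batch 2 the counts were 5 of 8 other peptides, with Npvf added, 6 of 16 regional genes, with Asb4 added, 2 of 12 processing genes, with Scg2 added, and again 0 of 9 and 0 of 10, against 3.6% of the probe sets.

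Markers of neighbouring regions moved with the same deviations. An r above 0.5 was reached by 8 of 11 thalamus markers (Gbx2 at 0.89, Slc17a6 at 0.68 and Shox2 at 0.63 as the highest) and by 5 of 8 markers of midbrain dopamine neurons (Ddc and Th both at 0.71), with medians of 0.58 and 0.53. Of 9 striatum markers 1 passed, Tac1 at 0.71. All 10 cortex markers had an r below 0, from -0.64 to -0.21, with a median of -0.35. The summed thalamus markers had log2 levels from 9.06 to 9.99 on Chimpanzee, 9.73 to 10.31 on HumanCafe, 9.73 to 10.42 on FastFood and 9.36 to 10.23 on Pellet, and the summed midbrain markers from 6.62 to 7.67, 6.83 to 7.89, 6.94 to 8.12 and 7.03 to 7.68. Within these, Gbx2 and En1 had low means of 3.17 and 2.55. In human diets minus Chimpanzee 10 of 11 thalamus and 8 of 8 midbrain markers had differences above 0, with medians of 0.41 and 0.19, and 0 passed. The part of dissected tissue composition in the Avp and Oxt values was not tested.

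Markers of the pituitary, choroid plexus, cerebellum and blood had an r above 0.5 in 0 of 8, 0 of 9, 0 of 10 and 0 of 3 genes. Without the Pellet arrays of batch 2, 2 of 10 cerebellum markers were above it, Zic1 at 0.73 and Cbln1 at 0.53, the other counts were again 0, and those of thalamus, midbrain and striatum markers were again 8 of 11, 5 of 8 and 1 of 9. In human diets minus Chimpanzee, 9 of 10 cerebellum and 9 of 9 choroid plexus markers had differences above 0, with medians of 0.61 and 0.18 log2, and 9 of 10 cortex markers had differences below 0, with a median of -0.13. None of them passed.

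**Figure D5:**
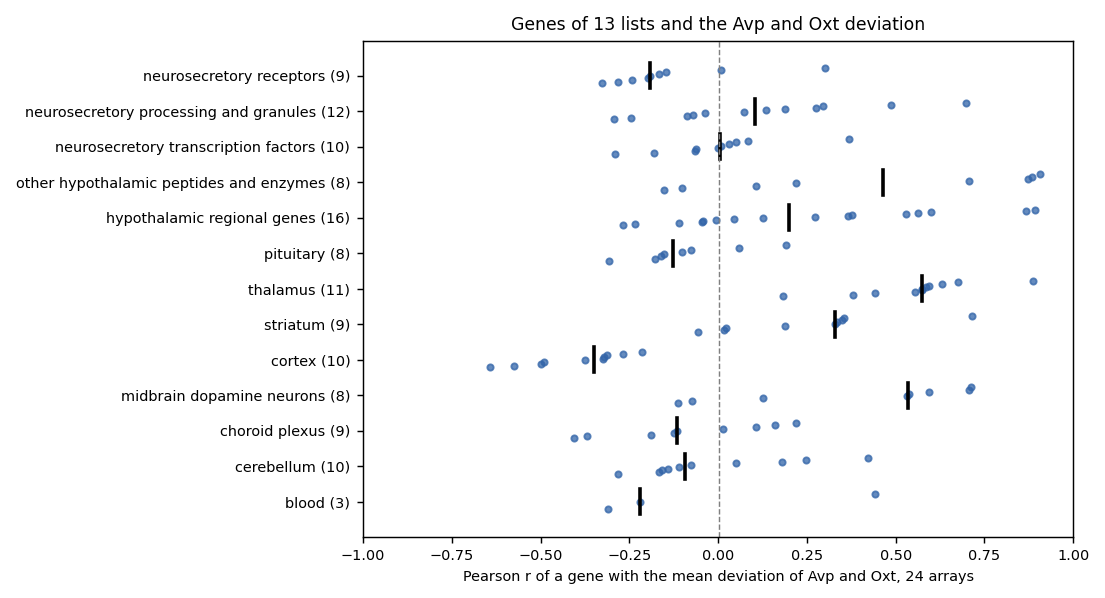
Pearson r (horizontal axis) between each gene of 13 lists and the mean deviation of Avp and Oxt over 24 arrays. Points are genes, black bars the median of the list, the dashed line the median of 19802 probe sets, and the number after each list its measured genes. Hypothalamic peptides, thalamus and midbrain lists lie to the right (medians 0.46, 0.58 and 0.53) and all cortex genes to the left of 0.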

How the data were processed

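RNA of 24 mice was measured on 1 array each, and the sample titles gave diet, batch and replicate number. The deposited values are log2 expression levels, which the authors made in R with the RMA method, quantile normalization included. Of 45101 probe sets, 64 controls were set aside and 45037 were tested with no filter on low values. The methods leave out 1 pellet brain sample because its RNA was highly degraded. That sample is not named in the sources used here, so all 24 arrays were kept.

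Diets were tested by limma 3.58.1 (R 4.3.3) in a model of diet plus batch that pooled the spread of all arrays, with p-values adjusted by Benjamini-Hochberg across the 45037 probe sets and called under 0.05. The interaction of diet and batch was tested in the same way, and batch on the 18 arrays without pellets. Relations between genes were tested by permutation in Python 3.11.15. The limma step was tested on simulated data with known differences. Promoter windows are those of RefSeq on GRCm38.p6.

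All probe sets of the 7 genes are named, with the 3 genes of highest likeness to each and, from each list, genes past the threshold or up to 3 with the largest difference. Genes of the lists given for their r, brain region markers and Pmch by array were named after their values were seen. The members and lists were chosen with earlier results of these data known. Alternatives covered the filter with 1 probe set per gene, centring, quantile normalization, the model of the spread, array weights, the arrays in the model, the batch term, a replicate block, each batch alone, exchanged pellet batches, the methods' two-way test and each array left out. Correlations within each batch and without pellet arrays, differences without 2 pellet arrays, and Pomc without 1 HumanCafe array, were added after seeing the data. The arrays are of separate mice, and their number limits the precision of every value.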

Additional observations from a re-analysis of the deposited data

Results flagged for a closer look

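Of 36 groups of 6 arrays, formed by the 9 probe sets and 4 diets, 2 held 1 array far from the other 5 by Dixon's ratio at the 95% level, and chance alone marks about 5% of such groups. Avp read 4.69 on HumanCafe batch 2 replicate 2, while the other 5 HumanCafe arrays lay between 6.89 and 8.00. On that array Oxt, at 5.08, was also at its lowest of all 24 arrays. The second Otp probe set read 4.59 on Pellet batch 2 replicate 1, against 3.70 to 4.01 on the other 5 Pellet arrays. This is the array with the lowest correlation to the rest, at 0.893.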

How the results depend on the processing

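In the 9 diet comparisons no alternative called a probe set of these genes except Pellet minus FastFood in labelled batch 2 alone, which called 4. Without 1 array at a time these counts stayed at 0. For the interaction of diet and batch, 1 was called with an intensity trend and robust spread, 5 with array weights and 0 to 3 without 1 array, above 0 without FastFood batch 1 replicate 3, HumanCafe batch 2 replicate 3 or Pellet batch 2 replicate 2. For batch 1 minus batch 2, repeated quantile normalization and the intensity trend called 1 each, array weights 2, and leaving out 1 array 0 to 2, above 0 without replicate 1 of batch 1 or 3 of batch 2 on Chimpanzee, 2 or 3 of batch 2 on FastFood, or 2 of batch 1 or 3 of batch 2 on HumanCafe. Log2 differences below the threshold turned sign in several settings. Ghrh in Pellet minus FastFood was -0.14 with array weights, -0.058 in batch 1 alone and -0.094 without Pellet batch 2 replicates 1 and 3, and Sim1 was -0.066 in batch 1 alone. In human diets minus Chimpanzee, Crh was -0.0084 in batch 1 alone, Gal -0.065 in batch 2 alone, and Sim1 -0.0080 with centred arrays, -0.032 with array weights and -0.097 in batch 2 alone. Without 1 array Ghrh there ranged from -0.019 to 0.077 and Sim1 from -0.033 to 0.027. The r of Avp and Gal no longer passed on deviations (0.53), in batch 1 alone (0.60) or in batch 2 alone (0.53), and ranged from 0.55 to 0.64 without 1 array. That of Otp and Sim1 was 0.19 with the mean of all probe sets, and it and that of Oxt and Otp each lost their call without single arrays. In batch 1 alone the r of Avp and Otp (0.53), Crh and Otp (0.38) and Crh and Sim1 (-0.63) did not pass. The pairs Oxt and Otp, Crh and Ghrh, and Otp and Sim1 passed in neither batch alone. The r of Avp and Oxt (0.85 to 0.91 without 1 array) and of Oxt and Gal (0.81 to 0.86) passed in every alternative run. The causes were not tested.

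Arrays share replicate numbers across diets, but over the probe sets at or above the median level the numbers did not pair them as a whole. Over 36 pairs of the same number and batch, Pellet included, the deviations correlated at -0.48 to 0.45 with a median of -0.02. Of these, 12 pairs were over 0.1, and 7 of 24 arrays matched their own number best. For Avp, Oxt and Gal the numbers did coincide in batch 2 on Chimpanzee, HumanCafe and FastFood, where number 2 was lowest and number 3 highest. With the replicate number as a block the counts of the 9 diet comparisons were all 0, and Crh in Pellet minus FastFood was -0.70 (adjusted p = 0.32 from limma).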

Other observations

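Pituitary hormone genes were read on the same arrays as the neurosecretory genes. Gh, growth hormone, had a log2 level of 11.65 on HumanCafe batch 1 replicate 1, 8.26 on FastFood batch 1 replicate 1 and 7.69 on Pellet batch 2 replicate 1. Prl, prolactin, read 11.28, 7.98 and 7.57 on these arrays, and Pomc was at its highest, 10.47, on the first of them. On HumanCafe batch 1 replicate 1, Gal and Ghrh read 5.38 and 4.01, the highest and second highest values of these genes over the 24 arrays, while Avp and Oxt, at 6.98 and 7.49, were the lowest of the 3 HumanCafe arrays of batch 1. On FastFood batch 1 replicate 1, Gal and Ghrh read 4.36 and 3.40, each the lowest of the 3 FastFood arrays of batch 1. On Pellet batch 2 replicate 1, Gal read 4.56, and Ghrh, at 4.77, was at its highest of the 24 arrays. The arrays high in Gh thus did not share a high Gal or Ghrh level. Whether pituitary tissue contributed to the Gal or Ghrh values was not tested.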
